A study of Mus musculus with 2 samples.

Results

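The nuclear genes that encode subunits of the mitochondrial respiratory chain and of ATP synthase were compared between the brains of wild type mice and of *Plzf* lu/lu mice at E10.5. Members were chosen by gene name alone: *Nduf* genes of the a, b, c, s and v series for complex I, *Sdha*, *Sdhb* and *Sdhc* for complex II, names beginning with *Uqcr* for complex III, *Cox4* to *Cox8* for complex IV and *Atp5a* to *Atp5o* for ATP synthase. This rule found 80 of the 37074 gene names on the array, probed by 123 of its 56605 sequences of 60 bases. Complex I contributed 36 of these genes, complex II 3, complex III 8, complex IV 17 and ATP synthase 16, among them the pseudogene *Atp5c1-ps*.

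The respiratory chain of the inner mitochondrial membrane passes electrons from NADH (through complex I) and succinate (through complex II) by way of complex III to complex IV, where oxygen is reduced, and ATP synthase uses the proton gradient that the chain builds to make ATP. Most subunits are encoded in the nucleus, made in the cytosol and imported, whereas a small set is encoded by mitochondrial DNA, so each of complex I, complex III, complex IV and ATP synthase is assembled from products of both genomes. The neuroepithelium at this stage divides rapidly and relies strongly on glycolysis, and neurons that form from it depend more on respiration. *Plzf* (*Zbtb16*) encodes a transcription factor with a BTB domain and zinc fingers.

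RNA of the forebrain and midbrain came from homozygous luxoid mice, in which a spontaneous change of a single base early in the coding sequence of *Plzf* truncates the protein, and from wild type mice, labeled C57BL/6. No other allele or agent was named for either group. Each of the 2 arrays compared 1 wild type sample, labeled with Cy3, with 1 *Plzf* lu/lu sample, labeled with Cy5. The labels call the pairs biological replicates, the number of embryos behind each sample is not given in the sources used here, and the dyes were not exchanged, so dye and genotype cannot be told apart. Both arrays lay on 1 slide. The values below are log2 ratios (*Plzf* lu/lu over wild type) from the processed signal of the brightest probe of a gene. A gene was tested when each channel of each array had a signal above 200 and at least 5 times its noise, which left 10600 genes.

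The mutated gene came first. The *Zbtb16* signal was 433 and 546 in the wild type channels and 172 and 211 in the *Plzf* lu/lu channels, a log2 ratio of -1.33 and -1.37. The *Plzf* lu/lu signal on array 1 was under the minimum of 200, so *Zbtb16* was not among the 10600 genes tested. Neural progenitor markers passed the signal minimum in 6 of 7 genes and neuron markers in 6 of 7, and so did 2 of 7 for endothelium, 7 of 7 for mesenchyme, 5 of 6 for surface ectoderm and 1 of 7 for muscle and heart. The neural progenitor markers summed to 37723 and 35141 in wild type and to 36242 and 45307 in *Plzf* lu/lu. The erythroid markers had a summed signal of 466700 in wild type on array 1, against 194170 in wild type on array 2 and 250320 and 237220 in *Plzf* lu/lu, so the wild type sample of array 1 stood apart in blood content. The neuron markers summed to 6540 and 5837 in wild type and to 7048 and 9386 in *Plzf* lu/lu. The endothelium markers summed to 4469 and 5067 in wild type and to 3898 and 3641 in *Plzf* lu/lu, the surface ectoderm markers to 7832 and 11522 against 12249 and 8855, the mesenchyme markers to 15711 and 13320 against 15920 and 12068, and the muscle and heart markers to 505 and 617 against 565 and 574. The part of these shifts in the ratios of respiratory chain genes was not tested. Ratios of single genes below are therefore mostly given on each array, whereas many medians and values of alternative settings use the mean of both arrays. In whole tissue, fewer cells of a type and less RNA per cell cannot be told apart.

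Compared with the wild type, no respiratory chain gene in the *Plzf* lu/lu brain passed the fold or the adjusted threshold. Of the 80 genes, 76 passed the signal minimum, and of these 0 were higher and 0 lower by more than 1.3-fold on each of the arrays. Over all genes tested, 2.58% were higher and 0.736% were lower by this rule. *Atp5b* and *Atp5g3* were higher by more than 1.3-fold on array 1, where 8.25% of all genes tested were, but not on array 2. The mean log2 ratios of the 76 genes ran from -0.29 for *Sdhc* to 0.37 for *Ndufa9* and *Atp5g3*, with a median of -0.02 (-0.02 on array 1 and 0.02 on array 2), and the median of all genes tested was 0.01. Their SD between genes was 0.14, against 0.21 over all genes tested, and 84.2% of them lay within 0.2 of 0, against 70.0% of all genes. Cytoplasmic ribosomal protein genes (SD 0.14, 82.5%), assembly factors (0.14, 86.5%) and citric acid cycle genes (0.125, 88.2%) had similar values. The share was lower for glycolysis (46.7%), regulators of mitochondrial biogenesis (69.2%) and mitochondrially encoded subunits (27.3%). The 76 genes were bright (median signal 11568, against 1036 for all genes), and the part of signal in their spread was not tested.

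**Figure D1:**
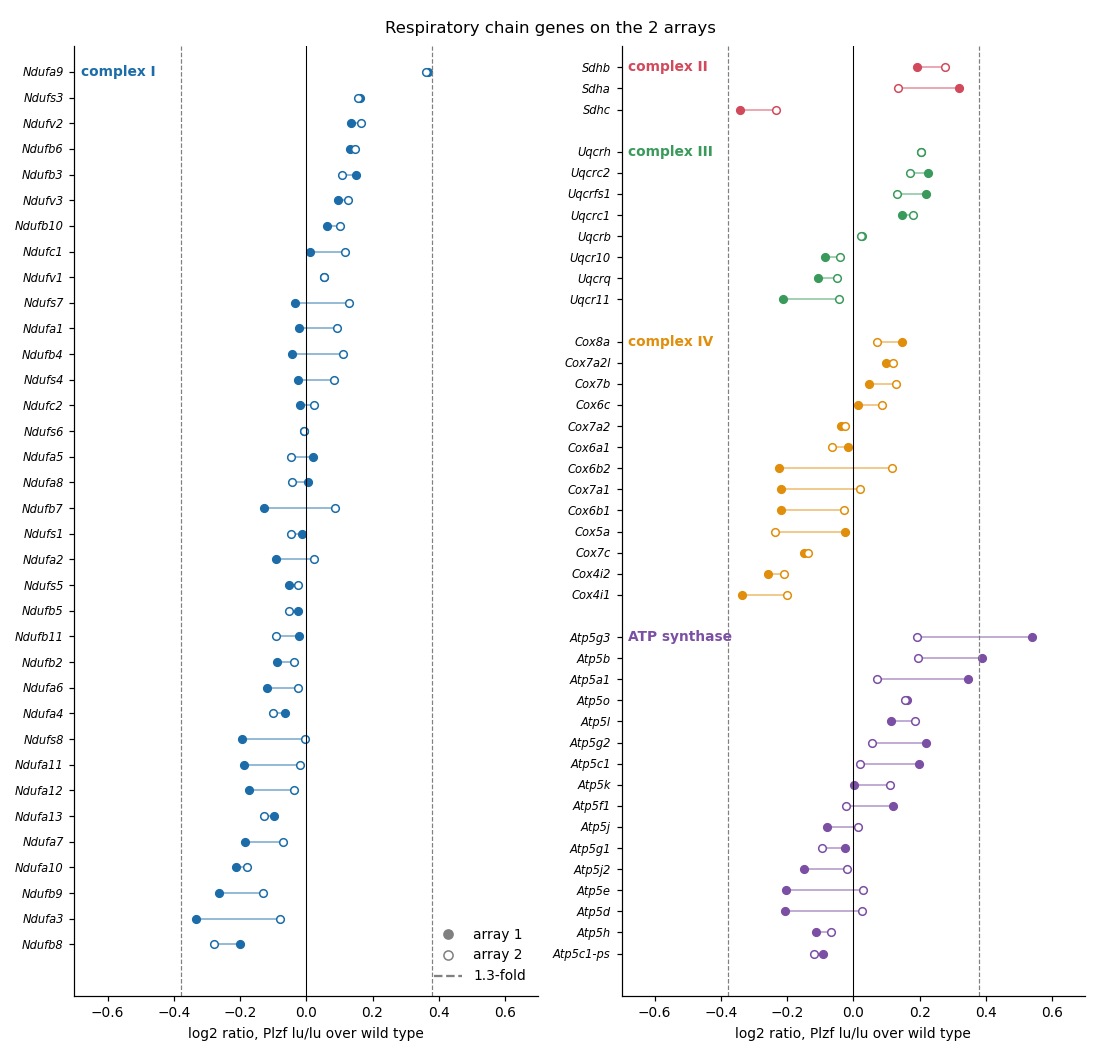
Log2 ratio (*Plzf* lu/lu over wild type) for 75 of the respiratory chain genes tested, by complex and ordered by the mean, with array 1 as filled and array 2 as open circles. No gene has both circles beyond the same dashed line of 1.3-fold, and *Atp5g3* and *Atp5b* cross it on array 1.

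The 2 arrays gave related values for these genes. The sign was the same on both arrays for 61 of the 76 genes, 29 positive and 32 negative, which is 80.3%, against 72.6% of all genes tested. Across these 76 genes, which share the 2 arrays and are not independent replicates, Pearson's r between the arrays was 0.72 and Spearman's rho was 0.72. Over all genes tested these values were 0.55 and 0.60. Pearson's r was 0.70 for cytoplasmic ribosomal protein genes, 0.44 for the citric acid cycle and 0.36 for assembly factors. Both *Plzf* lu/lu signals were above both wild type signals for 25 genes, below them for 24 and overlapping for 27. The shares over all genes tested were 30.5% above and 26.3% below, and 25 and 24 of 76 are near them.

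**Figure D2:**
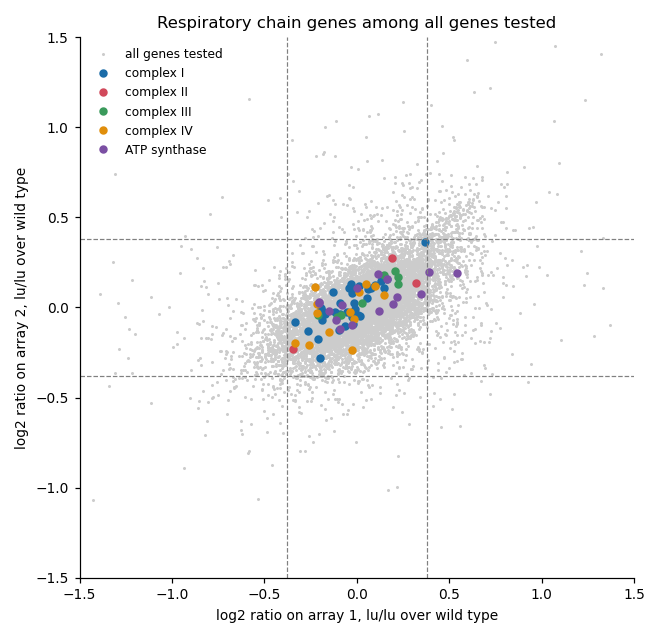
Log2 ratios on array 1 (x axis) and array 2 (y axis) of respiratory chain genes, colored by complex, over all 10600 genes tested in gray, with 5 genes outside the axes. The colored points form a narrow band inside the dashed lines of 1.3-fold, except *Atp5g3* and *Atp5b*, which cross the line on array 1. No colored point lies beyond both lines of 1 corner.

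In limma with Benjamini-Hochberg adjustment over the 10600 genes, no adjusted p of these genes was under 0.05 (0 of 76), where 0.0283% of all genes tested were called as higher and 0% as lower. At an unadjusted p under 0.05, 7 of the 76 genes were higher (15.7% of all genes were) and 5 were lower (12% of all genes were). At an adjusted p under 0.1 there were 2, *Ndufa9* and *Sdhc*, where 12.2% of all genes passed. The limma 95% interval of the log2 ratio lay wholly inside 1.3-fold in both directions for 61 of the 76 genes (80.3%, against 62.3% of all genes), and its width on each side of the mean was between 0.18 and 0.26. For the other 15 genes a difference of 1.3-fold lay inside the interval, so it was not excluded with 2 arrays, and the exact sign-flip test over 2 arrays cannot go below p = 0.5. With normexp background correction and centring on the genes tested, in place of the dye normalization of the deposited signals, 5 of the 76 genes were higher beyond 1.3-fold, where 4.29% of all genes were, and 14 had an adjusted p under 0.05, where 14.3% of all genes did.

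Complex I, which takes electrons from NADH, held *Ndufa9* at its upper end and *Ndufb8* at its lower end. *Ndufa4* is counted here by its name, although its protein was later assigned to complex IV. The signal of *Ndufa9*, an accessory subunit of the arm that projects into the matrix, was 2515 and 2235 in wild type and 3247 and 2873 in *Plzf* lu/lu. Both *Plzf* lu/lu signals were above both wild type signals, and the log2 ratio was 0.37 on array 1 and 0.36 on array 2 (mean 0.37, SD 0.004, n = 2), just under 1.3-fold, with an adjusted p of 0.068 from limma. With the trend on base composition removed *Ndufa9* was beyond 1.3-fold on both arrays with an adjusted p of 0.0348, and with a variance trend in limma its adjusted p was 0.0497. Over all settings its mean ratio was positive, and its adjusted p ran from 1.18e-10, with normexp and centring on all gene probes, which raised nearly every gene, to 0.556 without a signal filter.

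*Ndufb8* encodes an accessory subunit of the membrane arm whose protein is widely used as a marker of assembled complex I. Its signal was 16347 and 17111 in wild type and 14215 and 14093 in *Plzf* lu/lu, and the groups did not overlap. Its log2 ratio was -0.20 and -0.28 (mean -0.24, SD 0.06, n = 2; adjusted p = 0.121 from limma). The brightest probe of the complex was that of *Ndufa13*, an accessory subunit also known as GRIM-19, with 26953 and 26364 in wild type and 25168 and 24139 in *Plzf* lu/lu. Its log2 ratio was -0.10 and -0.13.

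The core subunits of complex I carry the flavin, the iron-sulfur clusters and the quinone site and have counterparts in bacteria. *Ndufs3* had 7087 and 6584 in wild type and 7938 and 7333 in *Plzf* lu/lu, and *Ndufv2* had 7080 and 6956 against 7770 and 7802. For both genes the groups did not overlap, and the log2 ratios were 0.16 and 0.16 for *Ndufs3* and 0.13 and 0.17 for *Ndufv2*. *Ndufs8* had -0.20 and 0.00, with both *Plzf* lu/lu signals below both wild type signals. *Ndufs1* (-0.01 and -0.05), *Ndufs7* (-0.03 and 0.13) and *Ndufv1* (0.05 and 0.05) had overlapping groups. The 29 accessory subunits had a median of -0.03, with 6 positive and 15 negative on both arrays (3949 and 3749 of all 10600 genes tested).

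Complex II links the citric acid cycle to the chain and has no mitochondrially encoded subunit. Its 3 members differed in direction. *Sdhc*, a membrane anchor that binds heme and quinone, had 3072 and 2863 in wild type and 2422 and 2436 in *Plzf* lu/lu, with no overlap. Its log2 ratio was -0.34 and -0.23 (mean -0.29, SD 0.08, n = 2; adjusted p = 0.0977 from limma), the lowest mean of the 76 genes. *Sdhb*, the iron-sulfur subunit, had 14139 and 13498 in wild type and 16147 and 16359 in *Plzf* lu/lu, and *Sdha*, the flavoprotein that oxidizes succinate, had 3239 and 3428 against 4037 and 3762. For both genes the *Plzf* lu/lu signals lay above those of the wild type, with log2 ratios of 0.19 and 0.28 for *Sdhb* and 0.32 and 0.13 for *Sdha* (adjusted p of 0.128 and 0.158 from limma). A second probe of each of these genes had a ratio of the opposite sign on average, as described below. *Sdhd*, the other membrane anchor, lies outside the name rule and had log2 ratios of -0.14 and -0.24.

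Complex III passes electrons from ubiquinol to cytochrome c. All 8 members had the same sign on both arrays (72.6% of all genes tested did), 5 positive and 3 negative, with a median of 0.09. *Uqcrh*, the hinge protein that contacts cytochrome c1, had 28969 and 30563 in wild type and 33376 and 35180 in *Plzf* lu/lu, with no overlap and a log2 ratio of 0.20 on each array (SD 0.001, n = 2; adjusted p = 0.154 from limma). The 2 core proteins and the Rieske iron-sulfur protein were of similar size, with 0.15 and 0.18 for *Uqcrc1*, 0.22 and 0.17 for *Uqcrc2* and 0.22 and 0.13 for *Uqcrfs1*. Among the small subunits, *Uqcrb* had 0.03 and 0.02, *Uqcr10* -0.09 and -0.04, *Uqcrq* -0.11 and -0.05, and *Uqcr11* -0.21 and -0.04. These signs are those of the brightest probe. A second probe that passed gave -0.15 and -0.12 for *Uqcrb* and -0.07 and 0.05 for *Uqcr10*. *Cyc1*, the cytochrome c1 gene, lies outside the name rule and had 0.08 and -0.02. None of the 8 members passed the adjusted threshold.

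Complex IV reduces oxygen, and several of its nuclear subunits exist as isoforms that differ between tissues. *Cox4i1*, the general form of the subunit that binds ATP, had 25747 and 25041 in wild type and 20383 and 21810 in *Plzf* lu/lu. The groups did not overlap, and the log2 ratio was -0.34 and -0.20 (mean -0.27, SD 0.10, n = 2; adjusted p = 0.112 from limma), the lowest of the complex. *Cox4i2*, the isoform known from lung and from low oxygen, was close to the signal minimum with 343 and 384 in wild type and 287 and 332 in *Plzf* lu/lu, and its log2 ratio was -0.26 and -0.21. The general isoforms *Cox6a1* (-0.01 and -0.07), *Cox7a2* (-0.04 and -0.02) and *Cox8a* (0.15 and 0.07, the highest mean of the complex) were near 0, as was *Cox7a2l* (0.10 and 0.12), a factor of supercomplex assembly that is also known as SCAF1.

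*Cox6b1* had log2 ratios of -0.22 and -0.03, and its testis isoform *Cox6b2*, with signals between 492 and 644, had -0.22 and 0.12. *Cox7a1*, the isoform of heart and skeletal muscle, had signals between 215 and 250 and ratios of -0.22 and 0.02. The 4 members that did not pass the signal minimum were all isoforms of complex IV known from particular tissues. *Cox6a2*, of heart and muscle, had signals of 17.0 and 18.4 in wild type and 17.6 and 17.6 in *Plzf* lu/lu. *Cox7b2*, *Cox8b* and *Cox8c* were not well above background in every channel, with signals between 1.42 and 8.73, and no ratio is given for them. At these signals a difference was not detectable.

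ATP synthase held both members that were beyond 1.3-fold on array 1 alone. On array 1, 8.25% of all genes tested were higher by this fold. *Atp5g3*, which encodes the c subunit of the rotor ring, had 21727 and 25237 in wild type and 31590 and 28808 in *Plzf* lu/lu. Both *Plzf* lu/lu signals were above both wild type signals, but the log2 ratio was 0.54 on array 1 and 0.19 on array 2 (mean 0.37, SD 0.25, n = 2; adjusted p = 0.106 from limma). *Atp5g2* and *Atp5g1* encode the same mature c subunit with other targeting peptides, and their ratios were 0.22 and 0.06 and -0.03 and -0.09. *Atp5b*, the catalytic beta subunit, had 28198 and 27907 in wild type and 36948 and 31934 in *Plzf* lu/lu, with no overlap and ratios of 0.39 and 0.19 (adjusted p = 0.108 from limma), and its probe was the brightest of the complex. *Atp5a1*, the alpha subunit, had 0.35 and 0.07, and *Atp5o*, the stalk subunit that gives sensitivity to oligomycin, 0.16 and 0.16. Other probes of *Atp5b*, *Atp5a1* and *Atp5o* that passed had negative ratios on both arrays, and probes that differ are described below. The remaining F1 subunits *Atp5c1* (0.20 and 0.02), *Atp5d* (-0.21 and 0.03) and *Atp5e* (-0.20 and 0.03) were within 0.11 of 0 on average. The pseudogene *Atp5c1-ps* had -0.09 and -0.12, the lowest mean of this group, and can share signal with *Atp5c1*.

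The subunits encoded by mitochondrial DNA were examined beside the nuclear ones. All 11 of them on the array passed the signal minimum, and 10 were below the wild type on both arrays (3749 of all 10600 genes tested were). Their median log2 ratio was -0.25 (-0.34 on array 1 and -0.22 on array 2). None was beyond 1.3-fold on both arrays and none had an adjusted p under 0.05 in limma, but 7 were lower at an unadjusted p under 0.05 (12% of all genes were) and 5 had an adjusted p under 0.1 (12.2% of all genes). *ND2*, a proton-pumping subunit of complex I, had 21090 and 18255 in wild type and 12653 and 14151 in *Plzf* lu/lu, with ratios of -0.74 and -0.37 (adjusted p = 0.0639 from limma). *COX2*, which receives electrons from cytochrome c, had 67464 and 67271 against 54321 and 53320, with ratios of -0.31 and -0.34 (adjusted p = 0.081). *CYTB* had -0.42 and -0.25, *ND5* -0.48 and -0.25 and *ND1* -0.74 and -0.24, whereas *ND3* had -0.14 and 0.04. With normexp background correction and centring on the genes tested, the median of these 11 genes was -0.09. Of them, 4 were negative and 3 positive on both arrays in this setting, for which the share over all genes was not computed. The difference between nuclear and mitochondrially encoded genes was not tested.

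**Figure D3:**
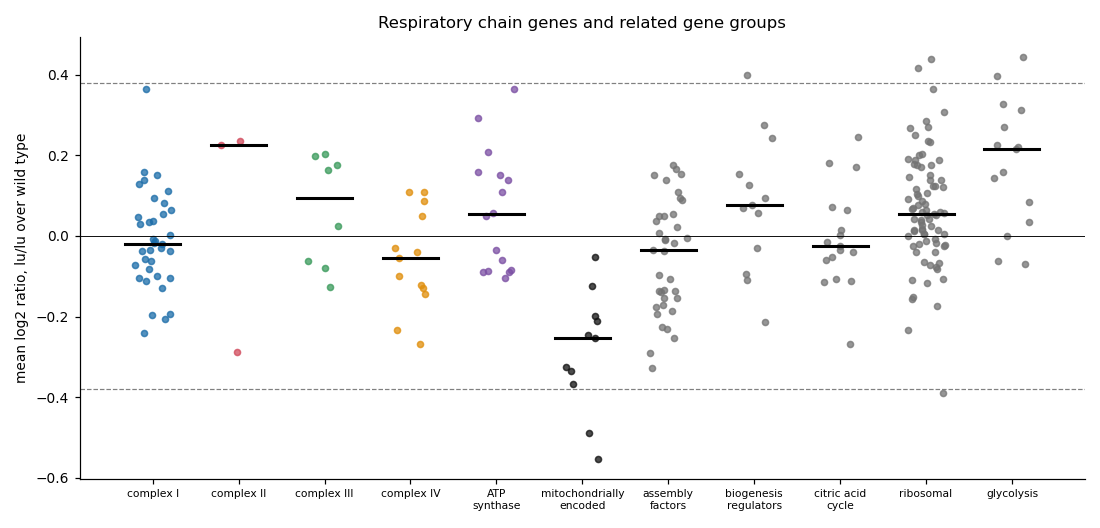
Mean log2 ratio (*Plzf* lu/lu over wild type) of each gene tested (points) and the median (bars) for the 5 groups of respiratory chain genes and for related groups, with dashed lines at 1.3-fold. The mitochondrially encoded subunits have a median of -0.25, while the medians of the complexes lie between -0.05 and 0.23 and that of glycolysis is 0.21.

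Assembly factors and regulators were also examined. Of 43 assembly factors, 37 passed, with a median of -0.04, 5 lower and 0 higher at an unadjusted p under 0.05, where 12% of all genes tested were lower and 15.7% higher, and 0 at an adjusted p under 0.05. The lowest was *Cox17*, a copper chaperone of complex IV, with 38930 and 36031 in wild type and 30972 and 28723 in *Plzf* lu/lu, ratios of -0.33 on each array and an adjusted p of 0.0794 from limma. *Ndufaf7*, a methyltransferase needed for complex I, had -0.30 and -0.27. Of 17 regulators of mitochondrial biogenesis 13 passed, with 3 higher and 1 lower at an unadjusted p under 0.05 (15.7% and 12% of all genes). *Yy1*, a zinc finger factor, had 1349 and 1508 in wild type and 1953 and 1813 in *Plzf* lu/lu, ratios of 0.53 and 0.27 and an adjusted p of 0.082. *Nrf1* had 0.09 and 0.17, *Gabpa* 0.27 and 0.03, *Tfam*, which packages mitochondrial DNA, -0.01 and -0.21, and *Ppargc1a* was under the signal minimum in every channel.

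For some members, probes on different stretches of the transcript gave different ratios. Of 20 members with more than 1 probe that passed, 9 had probes whose mean ratios differed in sign. This share was not computed over all genes, so whether it is particular to these members was not tested. Among the 9 were *Atp5a1*, *Atp5b*, *Atp5o*, *Sdha*, *Sdhb* and *Uqcrb*. In *Atp5b*, the downstream probe on chromosome 10 gave 0.39 and 0.19, whereas the upstream probe had 1808 and 1473 in wild type and 1384 and 1276 in *Plzf* lu/lu, with ratios of -0.39 and -0.21. A probe between them had 17137 and 15322 in wild type and 16383 and 14124 in *Plzf* lu/lu, with ratios of -0.06 and -0.12. In *Sdha* the upstream probe had 781 and 700 in wild type and 656 and 598 in *Plzf* lu/lu, with ratios of -0.25 and -0.23 against 0.32 and 0.13 downstream. In *Sdhb* the upstream probe gave -0.31 and 0.08 against 0.19 and 0.28.

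The probes of *Sdha* and *Sdhb* that disagreed with the brightest probe, and the *Cox4i1* probe with the lowest ratio of complex IV, are shown because these ratios rest on them. Coordinates are those of the deposited annotation in mm9, and capitals mark G and C. Each has at least 1 reading frame without a stop codon. The span of the *Sdhb* probe on the genome (4568 bases) exceeds its length of 60 bases, as for a probe across an exon junction.
*Sdha* upstream (chr13:74465756-74465815, minus strand, 38.3% G and C): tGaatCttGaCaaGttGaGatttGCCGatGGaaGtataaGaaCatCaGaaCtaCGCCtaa
*Sdhb* upstream (chr4:140522514-140527081, plus strand, 45% G and C): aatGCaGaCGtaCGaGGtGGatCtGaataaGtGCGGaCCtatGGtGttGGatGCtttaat
*Cox4i1* (chr8:123197924-123197983, plus strand, 55% G and C): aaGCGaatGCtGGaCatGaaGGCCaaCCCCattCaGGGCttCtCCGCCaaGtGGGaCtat

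Among the 18 members with a pair of probes that share no stretch of 20 bases, the downstream probe had the higher ratio on both arrays in 10, the upstream probe in 7, and 1 was mixed. The median of the difference, downstream minus upstream, was 0.11 (0.14 on array 1 and 0.08 on array 2). In 15 of these 18 members the downstream probe was also the brighter one, and in 9 it had the lower share of G and C. Among the 2091 genes with such a pair, the downstream probe was higher on both arrays in 63.4% and the upstream probe in 15.9%. The median difference over these genes was 0.15 (0.20 on array 1 and 0.10 on array 2). Their downstream probe was the brighter one in 1691 and had the lower share of G and C in 1307. *Ndufa10* (-0.11 and 0.03 upstream, -0.21 and -0.18 downstream) and *Atp5g1* (-0.16 and -0.16 upstream, -0.32 and -0.28 downstream) were examples of the opposite order. RNA quality was not given in the sources used here. The parts of position, signal, base composition and RNA quality in these differences were not tested.

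**Figure D4:**
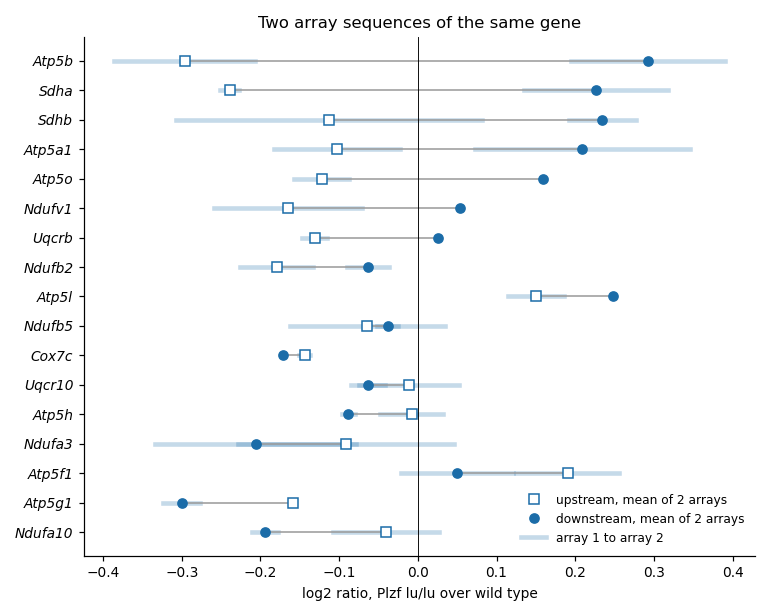
Mean log2 ratio of the upstream (open squares) and downstream (filled circles) probe of 17 respiratory chain genes, with pale bars from array 1 to array 2. *Atp5b*, *Sdha* and *Sdhb* go from negative to positive, and *Ndufa10* and *Atp5g1* are negative at both probes and lower downstream.

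The ratio also moved with the base composition of the probe. Over the 76 genes, Spearman's rho between the mean log2 ratio and the share of G and C was -0.43, and over all genes tested it was -0.33. By complex it was -0.77 for complex IV, -0.39 for ATP synthase, -0.25 for complex I and 0.10 for complex III. The 22 genes with probes of at most 40% G and C, among them *Atp5b*, *Atp5g3* and *Sdhb*, had a median of 0.07, and the 20 genes with at least 50%, among them *Cox4i1*, *Cox4i2* and *Sdhc*, had a median of -0.08. The corresponding medians of all genes tested were 0.07 and -0.09. With the trend removed on each array, the SD between the 76 genes went from 0.14 to 0.13, *Cox4i1* had -0.18, *Cox4i2* -0.10, *Sdhc* -0.20, *Sdhb* 0.13, *Atp5b* 0.17 and *Atp5g3* 0.27, while *Ndufa9* had 0.39 and *Ndufb8* -0.27. The share of G and C of the *Ndufa9* probe was 45%. Of the 76 probes, 20 held the polyadenylation signal AATAAA (26.3%, against 16% of all genes tested), and their genes had a median ratio of 0.07, against -0.04 for the others. The values over all genes tested were 0.06 and 0.00.

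**Figure D5:**
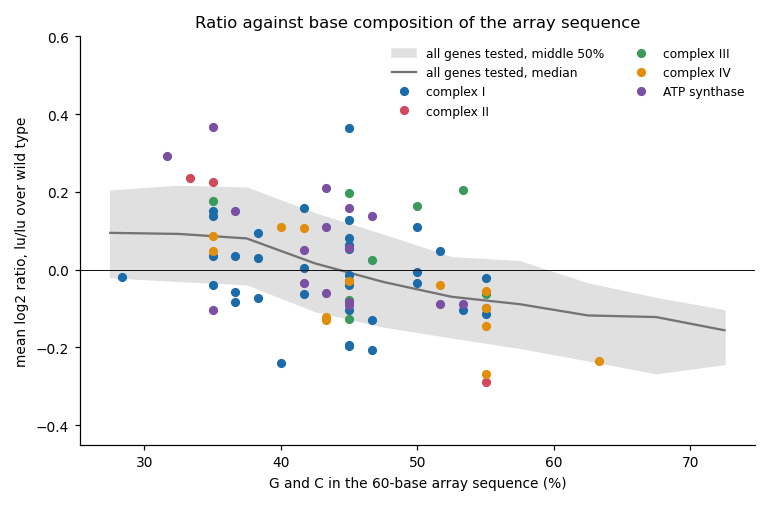
Mean log2 ratio (*Plzf* lu/lu over wild type, y axis) against the share of G and C in the 60 bases of the probe (x axis, %), for respiratory chain genes colored by complex, with the median (line) and the middle 50% (band) of all genes tested. The points scatter widely around the falling line of all genes, with a median of 0.07 at up to 40% and -0.08 at 50% and above.

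Promoter sequence, which the name rule did not use, was described without a test. RefSeq promoters of 300 bases, from 250 before to 50 after the start of a gene, were matched for 65 of the 80 genes in GRCm38.p6, 64 by symbol and 1 by a synonym, and gave 70 promoters. The motif GCGCNTGCG, a core of the site of the factor NRF1, was found on either strand in 32.9% of them, against 6.31% of all 32851 promoters. CGCATGCG, which overlaps it, was found in 12.9%, against 1.87%. AAGATGGC, which matches the site of YY1, was found in 14.3% against 2.75%, CCGGAAG, which ETS factors including GABP bind, in 21.4% against 8.86%, and TATAAA in 11.4% against 13.6%. Their median share of G and C was 57.2%, against 52.7% of all promoters, and their median number of CG dinucleotides was 19 against 7. GCGCNTGCG, CGCATGCG and CCGGAAG contain CG, and the part of base composition in their shares was not tested. A match is a description of the letters and not a measured site.

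The ratios of members were set beside these motifs without a test. The 22 tested genes with GCGCNTGCG had a median log2 ratio of -0.01 and the 41 without it -0.02. The 10 genes with AAGATGGC had a median of 0.01 and ran from -0.24 to 0.37, the full range of complex I, since the promoters of both *Ndufb8* and *Ndufa9* hold this motif. These promoters are shown with that of *Cox6a1*, the brightest probe of complex IV, which holds the NRF1 core and the ETS motif, with the motifs searched in capitals, 5′ to 3′ on the strand of the gene.
*Ndufa9* (GRCm38.p6, chr6:126849095-126849394, minus strand): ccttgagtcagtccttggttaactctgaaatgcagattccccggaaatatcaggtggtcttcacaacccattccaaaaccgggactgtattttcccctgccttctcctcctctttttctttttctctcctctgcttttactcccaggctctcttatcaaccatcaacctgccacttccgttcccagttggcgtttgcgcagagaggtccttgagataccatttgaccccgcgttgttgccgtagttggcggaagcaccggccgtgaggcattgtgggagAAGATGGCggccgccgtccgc
*Ndufb8* (GRCm38.p6, chr19:44555393-44555692, minus strand): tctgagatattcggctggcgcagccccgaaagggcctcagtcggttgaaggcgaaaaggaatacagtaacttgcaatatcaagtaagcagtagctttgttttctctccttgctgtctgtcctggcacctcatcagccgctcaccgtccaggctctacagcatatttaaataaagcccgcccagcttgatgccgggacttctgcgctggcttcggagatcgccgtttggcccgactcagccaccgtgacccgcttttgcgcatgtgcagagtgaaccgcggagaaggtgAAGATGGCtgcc
*Cox6a1* (GRCm38.p6, chr5:115348909-115349208, minus strand): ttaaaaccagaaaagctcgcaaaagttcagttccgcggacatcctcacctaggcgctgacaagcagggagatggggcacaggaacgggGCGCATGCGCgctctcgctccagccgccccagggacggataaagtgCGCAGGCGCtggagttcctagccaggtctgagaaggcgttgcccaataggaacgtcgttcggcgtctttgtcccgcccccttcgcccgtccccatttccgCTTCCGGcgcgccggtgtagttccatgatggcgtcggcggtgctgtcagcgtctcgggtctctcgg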

How the data were processed

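Pairs of wild type (Cy3) and *Plzf* lu/lu (Cy5) RNA were hybridized to 2 Agilent SurePrint G3 arrays. The authors processed the scans with Feature Extraction 10.7.3.1, with background subtraction and a LOWESS dye normalization on rank-consistent probes. The deposited intensity of each channel was used, with the deposited log10 ratio as a check and the deposited log2 table as an alternative, which differed by at most 0.005. No normalization between arrays was applied. Control spots and outlier spots (137 and 126 gene spots) were left out, spots of a probe were averaged as log2 values, and the brightest probe stood for a gene. No spot of a member was saturated. The fit used lmFit and eBayes of limma 3.58.1, with Benjamini-Hochberg adjustment over 10600 genes (R 4.3.3; R package data.table, version 1.17.8). Python 3.11.15 and matplotlib 3.10.9 were used for sequences and plots. The procedure was tested on simulated data.

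Genes were named by rule: members beyond 1.3-fold on both arrays, the highest, lowest and brightest of each complex, isoform families, core subunits of complex I, members whose probes differ in sign, and *Zbtb16*. *Uqcrc1*, *Uqcrc2*, *Uqcrfs1*, *Uqcr10*, *Uqcrq*, *Ndufa10*, *Atp5c1*, *Atp5d*, *Atp5e* and the genes named from other groups were chosen after their values were seen. A gene that the rule names is not reported here. The members and lists were chosen with earlier results of these data known. Alternatives were normexp (offset 50) with loess or centring, the deposited table, other filters, the mean over probes, removal of the trend on G and C (lowess, span 0.67), a variance trend, 1.5-fold, no pairing by array, and each array alone. Centring on the genes tested and the use of the next brightest probe were chosen after seeing the data. The number of arrays limits the precision.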

Additional observations from a re-analysis of the deposited data

How the results depend on the processing

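With 2 arrays, no dye exchange and probes of 1 gene that disagree, differences under 1.3-fold could not be settled for single genes. The counts of members beyond 1.3-fold were 0 higher and 0 lower with normexp and loess, the deposited table, spots well above background, the signal minimum in at least 1 channel of each array, averaged probes, single probes, the next brightest probe and a variance trend, and likewise beyond 1.5-fold. Without the replicate block (the 4 channels as separate samples after Aquantile normalization) the count at an adjusted p under 0.05 was 0, with 7 higher and 5 lower at an unadjusted p under 0.05. Of these 12 members 11 were shared with the values reported, *Cox4i2* being lost (adjusted p 0.254) and *Ndufb9* gained, and calls over all genes at an adjusted p under 0.05 went from 3 to 0. This setting also changed the normalization, so pairing and normalization cannot be told apart in it.

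With normexp and centring on all gene probes, the median of all genes tested was 0.59, 72 members were higher beyond 1.3-fold (69.2% of all genes), 75 had an adjusted p under 0.05 (93.3%), 75 were higher (93.5%) and 0 lower (0.0472%) at an unadjusted p under 0.05, and the medians were 0.73 for all members, 0.71 for complex I, 0.85 for complex II, 0.79 for complex III, 0.57 for complex IV and 0.77 for ATP synthase. Sign changes are listed here for members named by the rule whose sign was the same on both arrays. They were 0.51 for *Atp5c1-ps*, 0.64 for *Atp5g1*, 0.50 for *Cox4i1*, 0.27 for *Cox4i2*, 0.94 for *Cox6a1*, 0.49 for *Cox6b1*, 0.77 for *Cox7a2*, 0.71 for *Ndufa13*, 0.50 for *Ndufb8*, 0.56 for *Ndufs1*, 0.59 for *Ndufs8*, 0.33 for *Sdhc* and 0.63 for *Uqcr11*. Of the members with mixed signs, *Cox6b2* had 0.46, *Cox7a1* 0.39 and *Ndufa5* 0.73 there. Centred on the genes tested, the median of all genes was near 0 and the ratio kept a trend on signal over all genes (Spearman's rho 0.42, against -0.01 in the values reported). Members were bright, with a median signal of 11568 against 1036 for all genes. Here 5 members (*Atp5b*, *Atp5g3*, *Atp5o*, *Ndufa9* and *Uqcrh*) were higher beyond 1.3-fold (4.29% of all genes), 14 had an adjusted p under 0.05 (14.3%), and 27 were higher (19.6%) and 2 lower (16.5%) at an unadjusted p under 0.05. The medians were 0.14 for all members, 0.12 for complex I, 0.20 for complex III, -0.0147 for complex IV and 0.19 for ATP synthase. The signs of *Atp5g1* (0.0535), *Cox6a1* (0.35), *Cox7a2* (0.19), *Ndufa13* (0.12), *Ndufs8* (0.0045) and *Uqcr11* (0.0446) changed. With normexp and loess 10 members were lower at an unadjusted p under 0.05 (12.4% of all genes), the medians were -0.0556 for complex I, 0.0495 for complex III, -0.0398 for complex IV and -0.0308 for ATP synthase, and *Cox6a1* (0.0082) and *Uqcrb* (-0.0241) changed sign.

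The next brightest probe gave medians of -0.24 for complex II, 0.0764 for complex III and -0.0859 for ATP synthase, and changed the sign of *Atp5a1* (-0.10), *Atp5b* (-0.0912), *Atp5o* (-0.12), *Ndufv1* (-0.16), *Sdha* (-0.24), *Sdhb* (-0.11) and *Uqcrb* (-0.13). Averaged probes gave -0.0064 for complex II, 0.0633 for complex III and -0.0064 for ATP synthase, and changed the sign of *Atp5b* (-0.0316), *Ndufv1* (-0.0553), *Sdha* (-0.0064) and *Uqcrb* (-0.053). With the trend on G and C removed, 1 member was higher beyond 1.3-fold (2.01% of all genes) and 1 had an adjusted p under 0.05 (6.67%), both *Ndufa9*, the medians were 0.13 for complex II, 0.0736 for complex III and -0.0105 for complex IV, and *Cox6a1* had 0.027. A variance trend gave 1 member with an adjusted p under 0.05, *Ndufa9* (3.71% of all genes), and 13 higher at an unadjusted p under 0.05 (16%). Without a filter 1 member, *Cox8b*, was lower beyond 1.3-fold at signals not above background, 0 were higher and 1 lower at an unadjusted p under 0.05 (3.98% and 5.13% of all genes), and complex IV had a median of -0.10. With spots well above background, 3 were higher and 2 lower at an unadjusted p under 0.05 (8.88% and 8.11%). On each array alone, the members higher beyond 1.3-fold numbered 0 to 2 (*Atp5b* and *Atp5g3* on array 1). Of all genes tested, 8.25% were higher on array 1 and 4.5% on array 2. The medians on each array ran from -0.0238 to 0.0222 for all members, -0.0254 to -0.0054 for complex I and 0.13 to 0.19 for complex II. They ran from 0.0777 to 0.0862 for complex III, -0.0366 to -0.0241 for complex IV and 0.028 to 0.0591 for ATP synthase. The cause of these changes was not tested.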

Other observations

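The pathways that feed the respiratory chain were examined too. Of 17 genes of the citric acid cycle and the pyruvate dehydrogenase complex, all passed the signal minimum, with a median log2 ratio of -0.03. *Mdh2*, the mitochondrial malate dehydrogenase, had 19825 and 22636 in wild type and 26084 and 24172 in *Plzf* lu/lu (ratios of 0.40 and 0.09), and *Suclg2*, a subunit of succinyl-CoA ligase, had ratios of -0.20 and -0.34. For glycolysis 15 of 18 genes passed, with a median of 0.21 (0.24 on array 1 and 0.11 on array 2). Of these, 11 were positive and 1 negative on both arrays (3949 and 3749 of all 10600 genes tested). None had an adjusted p under 0.05 in limma, and 6 were higher and 0 lower at an unadjusted p under 0.05 (15.7% and 12% of all genes were). *Pgk1*, a kinase of the ATP-yielding steps, had 44011 and 44983 in wild type and 60336 and 56945 in *Plzf* lu/lu, with ratios of 0.46 and 0.34 and an adjusted p of 0.0652 from limma. *Pkm*, pyruvate kinase, had 0.38 and 0.27, *Ldha*, which makes lactate, 0.36 and 0.18, and *Hk2*, the inducible hexokinase, 0.67 and 0.22. With probes averaged per gene the median of glycolysis was 0.08, and with normexp and centring on the genes tested it was 0.40. Of 84 cytoplasmic ribosomal protein genes 80 passed, with a median of 0.06. These groups were not tested against each other.

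Of the respiratory chain genes, 2 lie on chromosome 9 within 20 Mb of *Zbtb16*. *Atp5l*, a membrane subunit of ATP synthase 3.74 Mb away, had ratios of 0.11 and 0.19, and *Cox5a*, a subunit of complex IV 8.92 Mb away, had -0.03 and -0.24. Neither was beyond 1.3-fold on either array.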
